A study of Mus musculus with 12 samples.

Results

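The 35 genes examined here encode the proteins that carry fatty acids into mitochondria and peroxisomes, break them down by β-oxidation and turn part of the product into ketone bodies. They were chosen by name for their role in the pathway, with earlier results of these data known, out of 55487 genes in the deposited expression table. All 35 were found under 1 identifier each, and all 35 were among the 15197 genes that passed the filter on low counts. By the usual place of their proteins, 19 are mitochondrial, 9 are peroxisomal, 2 act in both organelles (Crat and Eci2), 4 are acyl-CoA synthetases spread over several membranes, and 1 is a transporter of the cell surface.

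Liver mRNA was sequenced from young adult male Kunming mice without arthritis, in 3 groups of 4 animals with 1 library per liver. The Control group received normal saline, the MTP group received triptolide at 300 μg/kg, and the MTP + CR group received triptolide at 300 μg/kg together with crocin at 100 mg/kg, each daily by oral gavage for 7 days. Triptolide, a diterpenoid from the thunder god vine, inhibits transcription. Crocin is the water-soluble carotenoid that colours saffron. No library here came from mice given crocin alone, and both contrasts with MTP use the same 4 MTP libraries, just as both contrasts with Control use the same 4 Control libraries.

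Long-chain fatty acids are first joined to coenzyme A and then pass the mitochondrial membranes bound to carnitine. Inside, each turn of the β-oxidation spiral shortens the chain by a dehydrogenation, a hydration, a further dehydrogenation and a thiolytic cleavage, and the electrons leave through the electron transfer flavoprotein. Peroxisomes run a parallel spiral, with enzymes of their own, on very long and branched chains and pass the shortened products on to mitochondria. In rodent liver many of these genes are targets of PPARα, the nuclear receptor that senses fatty acids during fasting.

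Each library held between 15509226 and 18430566 counts. Levels below are CPM values, counts relative to a library's total after that total was multiplied by its TMM factor. Higher and lower below are therefore relative to the other mRNA of a library. Amounts of mRNA per liver or per cell were not measured. The TMM factors were 0.836 to 0.952 for Control, 1.07 to 1.52 for MTP and 0.823 to 0.989 for MTP + CR libraries. MTP 1 and MTP 3 stood apart, with TMM factors of 1.52 and 1.31 and with 24070 and 23307 genes detected, against 19104 to 21394 in the other 10 libraries. Scaling by total counts alone moved the all-gene median of the log2 fold changes from 0.02 to 0.50 for MTP against Control and from −0.03 to −0.54 for MTP + CR against MTP. Of 15 hepatocyte markers, 4 were lower in MTP than in Control and 8 were higher in MTP + CR than in MTP, where 2.78% of all tested genes were lower and 5.94% higher. DESeq2 called 9 lower and 10 higher in these comparisons, against 6.01% and 11.4% of all tested genes. In MTP against Control all 15 log2 fold changes were below 0. An unadjusted p under 0.05 by edgeR was reached there by 12, against 22.8% of all tested genes in either direction. For 9 markers every MTP liver lay below every Control liver, against 7.71% of all tested genes. The summed level of the 15 was 113907 to 186008 CPM in Control livers, 39501 to 71149 CPM in MTP livers and 89575 to 138049 CPM in MTP + CR livers, with no marker at 0. The 12 endothelial markers summed to 691 to 790.01 CPM, 598 to 766 CPM and 229.6 to 336 CPM in the same order, and 9 of them were lower in MTP + CR than in MTP and 7 lower than in Control, where 6.51% and 1% of all tested genes were. The 10 stellate cell markers summed to 398 to 512 CPM, 391.7 to 571 CPM and 219 to 391.8 CPM, with MTP + CR livers below all Control livers. Of these, 3 were lower in MTP + CR than in MTP, where 6.51% of all tested genes were. The 11 Kupffer cell markers summed to 846 to 1293 CPM, 577 to 1005 CPM and 520.2 to 1164 CPM. In MTP against Control all 11 log2 fold changes were below 0, with 0 called by edgeR, where 2.78% of all tested genes were lower. An unadjusted p under 0.05 by edgeR was reached by 4, against 22.8% of all tested genes in either direction. DESeq2 called 2 lower, against 6.01% of all tested genes. The erythroid markers summed to 149 to 794 CPM, 87.4 to 292 CPM and 196 to 631 CPM. All 5 tested had an unadjusted p under 0.05 by edgeR towards lower values in MTP than in Control. Of all tested genes 22.8% reached this p in either direction. Of the 5, 1 was called lower, against 2.78% of all tested genes. The 12 markers of neutrophils and granulocyte precursors summed to 14.6 to 212 CPM in Control and 13.3 to 79.7 CPM in MTP + CR livers. In MTP livers they summed to 550.2 CPM in MTP 1 and 592 CPM in MTP 4, and to 69.3 and 24.7 CPM, within the Control range, in MTP 2 and MTP 3. Of the 11 tested, 4 were higher in MTP than in Control, where 2.61% of all tested genes were. All MTP livers were above Control for 1 of them, against 6.96% of all tested genes. In MTP + CR against MTP all 11 log2 fold changes were below 0, with 4 called lower, where 6.51% of all tested genes were. DESeq2 called 10 of them lower, against 10.5% of all tested genes. In whole liver, fewer cells of a type and less RNA per cell cannot be told apart, and the part of these markers in the results below was not tested.

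After triptolide alone, genes of carnitine transport, of long- and medium-chain dehydrogenation, of the trifunctional protein and of the isomerase steps, together with the peroxisomal Ehhadh and Pex11a, were higher than in Control. Their log2 fold changes ran from 0.89 for Acadl to 2.82 for Ehhadh, with 6.05 for the scarce Cpt1b. The call of Cpt1b was lost when the counts of an overlapping predicted gene were added (log2 fold change 1.15). Of the 35 genes, 11 were higher in MTP than in Control and 0 were lower by edgeR's quasi-likelihood test (fold change over 1.5 at an adjusted p below 0.05), where 2.61% of all tested genes were called higher and 2.78% lower. The 11 genes encode a carnitine transporter, 2 carnitine acyltransferases, 2 acyl-CoA dehydrogenases, both subunits of the trifunctional protein, 2 enoyl-CoA isomerases and 2 peroxisomal proteins. At an unadjusted p under 0.05, which 22.8% of all tested genes reached in either direction, 15 genes were higher and 0 lower, and DESeq2 called 14 higher and 0 lower, against 5.59% and 6.01% of all tested genes. The median log2 fold change of the 35 genes was 0.42, against 0.02 for all tested genes, and 28 of the 35 values were above 0. In 13 genes the MTP livers were all above the highest Control liver, a pattern shown by 6.96% of all tested genes, and in 0 genes were they all below the lowest, against 7.71% of all tested genes.

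Against MTP, the MTP + CR group was higher in 2 genes (Etfb and Decr2) and lower in 2 (Slc22a5 and Hadhb), or 5.71% of the 35 in each direction, where 5.94% of all tested genes were called higher and 6.51% lower. The median log2 fold change was 0.15, against −0.03 for all tested genes. DESeq2 called 6 higher and 4 lower, against 11.4% and 10.5% of all tested genes, and an unadjusted p under 0.05 was reached by 8 higher and 5 lower genes, against 33.9% of all tested genes in either direction. The groups were fully apart in 3 genes each way, where 6.92% of all tested genes were apart with MTP + CR higher and 7.99% with MTP + CR lower. Against Control, the MTP + CR group was higher in 6 genes and lower in 0, where 0.329% of all tested genes were called higher and 1% lower. The 6 were Slc25a20 and Crat of the carnitine shuttle, the dehydrogenases Acadvl and Acadm, the isomerase Eci1 and the peroxisomal reductase Decr2. An unadjusted p under 0.05 was reached by 22 higher and 0 lower genes, against 22% of all tested genes in either direction, and DESeq2 called 16 higher and 0 lower, against 3.7% and 3.92%. The median log2 fold change was 0.86, against −0.02 for all tested genes, and 33 of 35 values were above 0, all but those of Acsl3 and Acsl4. In 19 of the 35 genes every MTP + CR liver lay above every Control liver, a pattern shown by 7.37% of all tested genes, and in 0 genes did every MTP + CR liver lie below, against 8.15% of all tested genes.

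**Figure D1:**
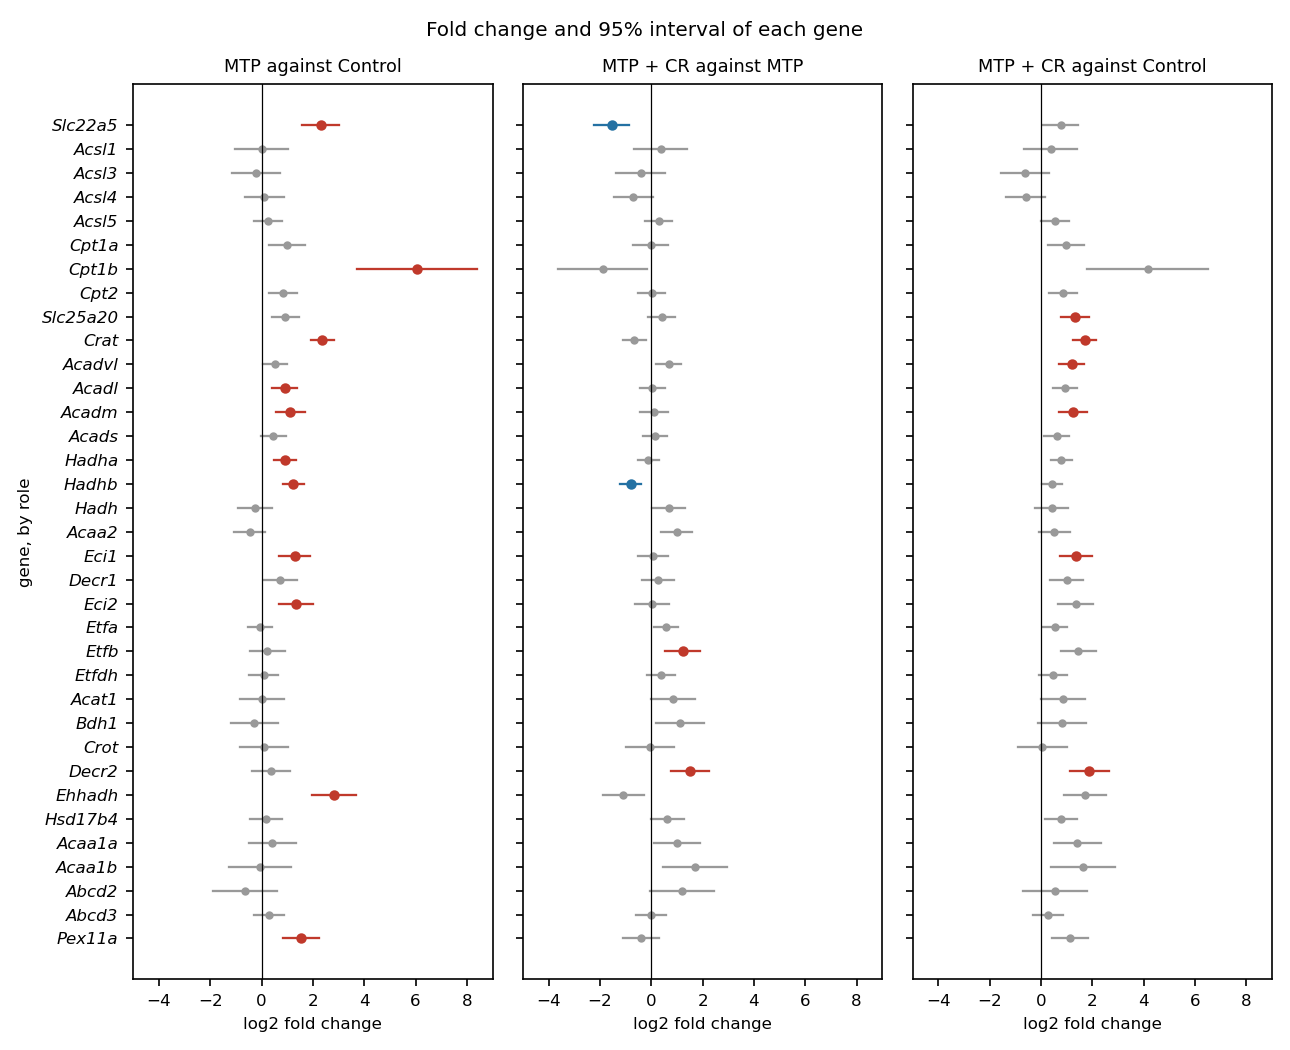
Log2 fold change (x axis) of each of the 35 genes (y axis, ordered by role) in the 3 comparisons, with a 95% interval. The interval takes the standard error as normal and is narrower than edgeR's quasi-likelihood test allows. That of Acadvl in MTP against Control leaves out 0 at an unadjusted p of 0.0521 by that test. Red points were called higher and blue points lower, grey points were not called, and the panel of MTP + CR against Control has 33 of 35 points above 0.

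Together the 35 genes took 0.558% to 1.02% of the counts in Control livers, 1.26% to 1.69% in MTP livers and 1.07% to 1.47% in MTP + CR livers. These shares are of total counts, on which neither the MTP livers nor the MTP + CR livers overlapped with Control. Per length, on the FPKM scale of the deposited table, the most abundant of the 35 in Control livers was Acaa2 (337 ± 41.4 FPKM, mean ± SD, n = 4) and the least abundant was Cpt1b (0.0182 ± 0.00591 FPKM). In MTP livers the most abundant was Ehhadh, at 609 ± 224 FPKM, which ranked 8th in Control livers at 60.3 ± 28.4 FPKM.

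**Figure D2:**
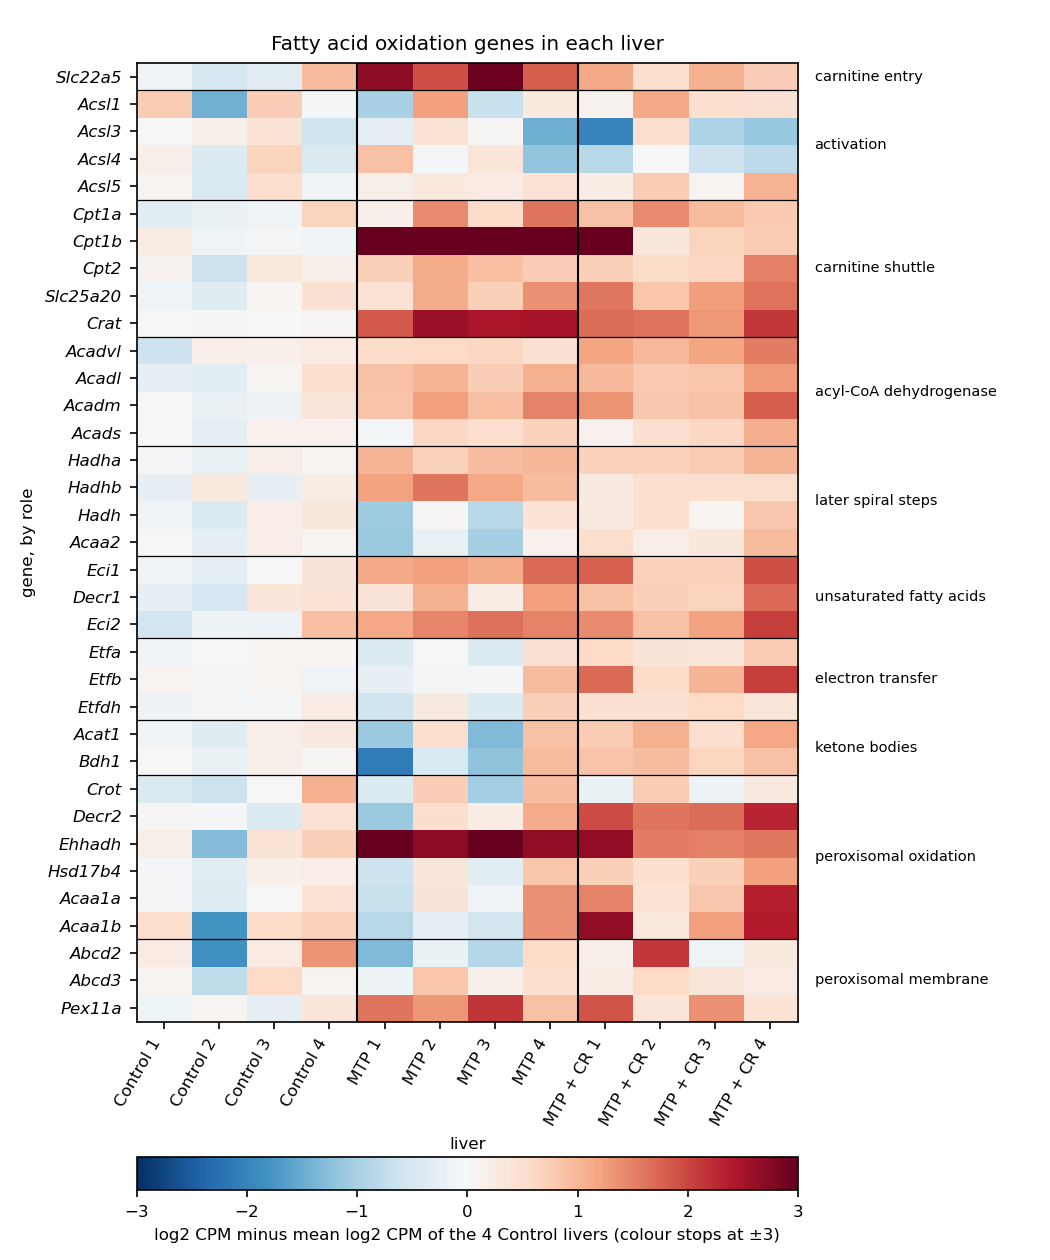
Difference of each gene (rows, grouped by role) in each liver (columns) from the mean log2 CPM of the 4 Control livers, in colour from −3 to 3. The rows of Slc22a5, Crat, Ehhadh, Eci1 and Eci2 are red in all 4 MTP livers, whereas Bdh1 and Acaa1b are blue in MTP 1, MTP 2 and MTP 3 and red in MTP 4.

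Of the genes of carnitine entry and the carnitine shuttle, Slc22a5 and Crat rose in MTP, and Slc25a20 and Crat in MTP + CR, each against Control. Cpt1b was called higher in MTP, but not when the counts of an overlapping gene were added. Slc22a5 (chr11:53864542-53891660, minus strand; coordinates here and below are of GENCODE vM21 on mm10) encodes the sodium-dependent carnitine transporter of the cell surface. Its level was 15.4, 11.3, 13.1 and 32 CPM in the 4 Control livers, 106, 63.3, 127 and 57.9 CPM in the MTP livers and 36.5, 23.4, 34.3 and 27.5 CPM in the MTP + CR livers. All MTP livers were above all others, and the MTP + CR livers overlapped with Control through Control 4. Its log2 fold change was 2.30 ± 0.36 (SE, adjusted p = 0.00683) in MTP against Control and −1.54 ± 0.35 (SE, adjusted p = 0.0230) in MTP + CR against MTP by edgeR's quasi-likelihood test. Between MTP + CR and Control it was 0.76 ± 0.35 (SE, adjusted p = 0.220), which did not pass. The transcript shares 98.3% of 831 aligned bases with the neighbouring Slc22a21 and 93.6% of 373 bases with Slc22a4, which had 869 and 372 counts over the 12 libraries against 10629 for Slc22a5, and with their counts added the log2 fold changes were 2.16 ± 0.34 (SE, adjusted p = 0.00706) and −1.35 ± 0.34 (SE, adjusted p = 0.0291).

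Crat (chr2:30400471-30415813, minus strand) encodes carnitine acetyltransferase, which moves short acyl groups between coenzyme A and carnitine in mitochondria and peroxisomes. It was almost the same in all Control livers, at 27.4, 27, 27.3 and 28.4 CPM. The MTP livers had 98.5, 164, 151 and 154 CPM and the MTP + CR livers 87.8, 85.2, 67.4 and 120.5 CPM. All 8 treated livers were above Control, and the MTP + CR livers overlapped with the MTP livers only through MTP + CR 4. Against Control, Crat had a log2 fold change of 2.37 ± 0.23 (SE, adjusted p = 7.73e-04) in MTP and of 1.71 ± 0.23 (SE, adjusted p = 0.00442) in MTP + CR. Between the treated groups it was −0.65 ± 0.22 (SE, adjusted p = 0.0660) and did not pass.

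Slc25a20 (chr9:108662088-108684641, plus strand) encodes the carnitine-acylcarnitine translocase of the inner mitochondrial membrane. Its level was 63.1, 53.8, 72.3 and 94.8 CPM in Control livers, 94.3, 151, 113 and 179 CPM in MTP livers and 207, 124, 165 and 215 CPM in MTP + CR livers. MTP 1 lay just below the highest Control liver, and all MTP + CR livers lay above Control. Slc25a20 had a log2 fold change of 1.32 ± 0.27 (SE, adjusted p = 0.0346) in MTP + CR against Control, and of 0.92 ± 0.27 (SE, adjusted p = 0.0639) in MTP against Control, which did not pass. The window from 250 bases before to 50 bases after its start (chr9:108661886-108662185, plus strand, GRCm38.p6, RefSeq) is printed because it is 1 of 2 windows, among those of the 28 genes searched, with a near match to the direct repeat that PPARα binds with RXR. The match is in capitals.

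Slc25a20: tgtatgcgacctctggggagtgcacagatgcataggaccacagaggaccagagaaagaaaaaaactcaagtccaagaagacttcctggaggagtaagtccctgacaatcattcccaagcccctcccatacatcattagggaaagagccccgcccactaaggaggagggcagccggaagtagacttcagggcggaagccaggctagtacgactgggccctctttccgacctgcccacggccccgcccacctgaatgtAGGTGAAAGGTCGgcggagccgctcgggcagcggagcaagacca

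The repeat searched, called direct repeat 1, is AGGTCA, any base, and AGGTCA again, read on both strands with at most 2 mismatches over its 12 defined bases. RefSeq promoter windows were found for 28 of the 35 genes, in 31 windows, and 2 of these windows (6.45%) held a match, against 1268 of 32851 windows of all genes (3.86%). A match is a likeness of letters and no evidence of binding, and the window of 300 bases leaves out more distant elements. Abcd2, Acaa2, Acat1, Cpt1b, Crat, Decr1 and Hsd17b4 had no window in the table used.

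Cpt1a, the liver form of the outer-membrane carnitine palmitoyltransferase and the rate-limiting step of the pathway, measured 283, 312, 334 and 569.8 CPM in Control, 399, 967, 530.5 and 1093 CPM in MTP and 658, 958, 698 and 620.1 CPM in MTP + CR livers. MTP 2 and MTP 4 were above all Control livers, MTP 1 and MTP 3 were within the Control range, and all MTP + CR livers were above Control. Its log2 fold changes of 1.00 and 0.97 against Control did not pass (adjusted p = 0.113 and 0.145). Cpt2, its partner on the inner membrane, lay above all Control livers in all 8 treated livers, with means of 106 ± 26.9 CPM, 189.8 ± 25.9 CPM and 192 ± 66.9 CPM (SD, n = 4), but its log2 fold changes of 0.84 and 0.86 did not pass either (adjusted p = 0.0865 and 0.111).

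Cpt1b (chr15:89416405-89425863, minus strand), the muscle form of Cpt1a, had the largest fitted change of the 35 genes, at a log2 fold change of 6.05 ± 1.20 (SE, adjusted p = 0.0145) in MTP against Control, a value that depends on the small count added to its few Control counts. It had 2, 1, 1 and 1 counts in the Control livers, 172, 75, 183 and 84 in the MTP livers, and 82, 2, 3 and 3 in the MTP + CR livers. The pooled ratio of MTP to Control was 74.4, with an exact 95% interval of 31.7 to 230.1 that covers counting error only. A predicted gene, Gm44502, spans all 9459 bases of Cpt1b on the same strand and is identical to it over 1841 aligned bases. Its counts were 61, 53, 35 and 19 in Control, 0, 0, 26 and 0 in MTP, and 48, 61, 72 and 164 in MTP + CR livers. The sum of both genes was 63, 54, 36 and 20 counts in Control, 172, 75, 209 and 84 in MTP, and 130, 63, 75 and 167 in MTP + CR livers. For this sum, a fit added after the values were seen, the log2 fold change against Control was 1.15 ± 0.42 (SE, adjusted p = 0.12) in MTP and 1.43 ± 0.42 (SE, adjusted p = 0.0916) in MTP + CR, and neither passed. Between MTP + CR and MTP the sum had a log2 fold change of 0.29 ± 0.40 (SE, adjusted p = 0.645), while that of Cpt1b alone was −1.90 ± 0.88 (SE, adjusted p = 0.147) with the opposite sign, and neither passed. Of 14 muscle markers, 4 to 7 were at 0 in every library of a group, and their sum stayed between 0.228 and 2.80 CPM in the 12 livers.

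**Figure D3:**
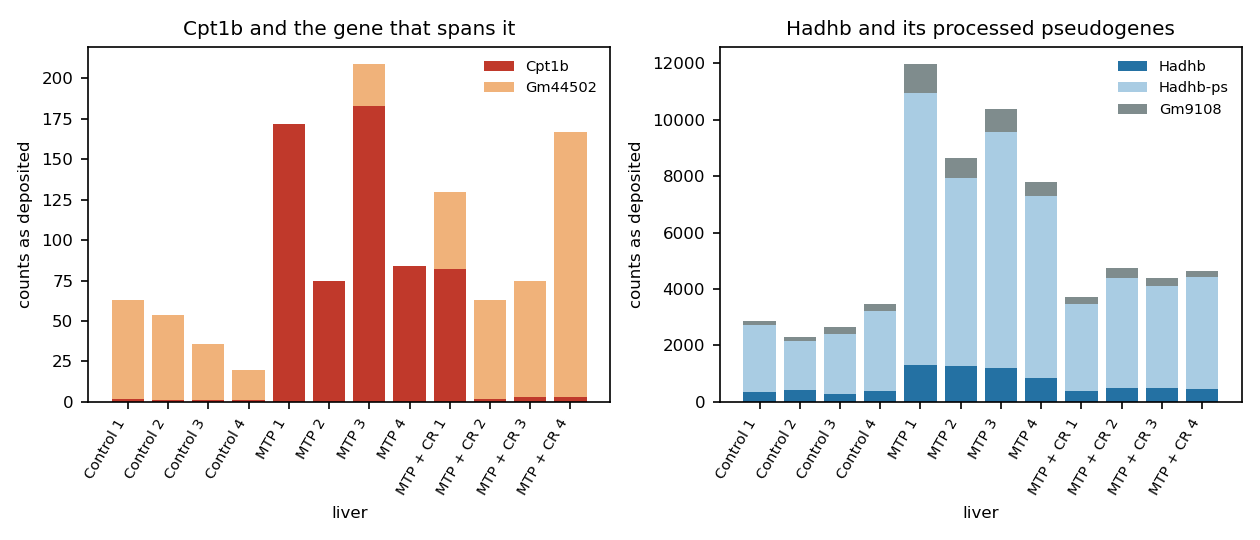
Counts as deposited (y axis) in each liver (x axis) for Cpt1b with the predicted gene that spans it, and for Hadhb with its processed pseudogenes, stacked. Of the Cpt1b pair, Gm44502 holds most counts in Control livers and Cpt1b in MTP livers, whereas Hadhb holds 10.0% to 18.1% of the stacked counts in every liver.

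The 4 acyl-CoA synthetases that activate fatty acids, Acsl1, Acsl3, Acsl4 and Acsl5, were not called in any comparison, and their groups overlapped in all 3. Acsl1, the main form of liver, varied widely within groups, from 216 to 1003 CPM in Control, 301 to 1383 CPM in MTP and 632 to 1319 CPM in MTP + CR livers. Its log2 fold change in MTP against Control was 0.00 with a standard error of 0.52. Acsl3 and Acsl4, of which Acsl4 prefers arachidonic acid, had the only values below 0 in MTP + CR against Control, at −0.63 and −0.59 on the log2 scale. Acsl5 ranged from 212 to 408 CPM in Control and from 308 to 599 CPM in MTP + CR livers. Utp14b overlaps Acsl3 on the same strand over 13475 bases and had 1616 counts against 6323. Zdhhc6 overlaps Acsl5 on the opposite strand over 26430 bases and had 11350 counts against 73170, and whether the counting used strand was not stated.

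Among the acyl-CoA dehydrogenases, which take the first electrons from the chain, Acadl and Acadm rose in MTP and Acadvl and Acadm in MTP + CR, each against Control, and the short-chain enzyme was not called. Acadvl (chr11:70010183-70015411, minus strand), for very long chains, measured 165, 291, 282 and 302 CPM in Control, 371, 382, 389 and 349 CPM in MTP and 576, 494, 572 and 738 CPM in MTP + CR livers. It was the only one of the 35 in which the 3 groups were fully apart in rising order. Acadvl had a log2 fold change of 1.20 ± 0.25 (SE, adjusted p = 0.0346) in MTP + CR against Control, while those of MTP against Control and of MTP + CR against MTP, 0.52 and 0.68, did not pass (adjusted p = 0.223 and 0.0775).

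Acadl (chr1:66830839-66863277, minus strand), for long chains, measured 157, 146, 196 and 265 CPM in Control, 344, 375, 311 and 389 CPM in MTP and 362, 321, 331 and 453 CPM in MTP + CR livers. All treated livers lay above Control, and the treated groups overlapped. Its log2 fold change in MTP against Control was 0.89 ± 0.24 (SE, adjusted p = 0.0485), just inside the threshold. For MTP + CR against Control it was 0.94 ± 0.24 (SE, adjusted p = 0.0699), just outside.

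Acadm (chr3:153922357-153944632, minus strand), for medium chains, measured 250.1, 222, 226 and 328 CPM in Control, 461, 598, 475 and 707 CPM in MTP and 643, 441, 469.7 and 881 CPM in MTP + CR livers. Again no treated liver reached down to Control. Against Control, Acadm had a log2 fold change of 1.13 ± 0.28 (SE, adjusted p = 0.0358) in MTP and of 1.25 ± 0.28 (SE, adjusted p = 0.0495) in MTP + CR. Acads, for short chains, went from 106 ± 12.8 CPM in Control to 145 ± 30.5 CPM in MTP and 161 ± 45.2 CPM in MTP + CR livers, with overlapping groups and no call.

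Of the 4 genes of the later steps, Hadha and Hadhb rose in MTP and Acaa2 and Hadh were not called. Hadha (chr5:30118304-30155162, minus strand) encodes the α subunit of the trifunctional protein, which hydrates and again dehydrogenates long chains. It measured 276, 245, 318 and 298 CPM in Control, 577, 456, 540.0 and 564 CPM in MTP and 455, 456, 482 and 574 CPM in MTP + CR livers. No treated liver was as low as Control, with a log2 fold change of 0.91 ± 0.21 (SE, adjusted p = 0.0283) in MTP and of 0.79 ± 0.21 (SE, adjusted p = 0.0762) in MTP + CR, which did not pass.

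Hadhb (chr5:30155248-30184593, plus strand) encodes the β subunit, a thiolase. Its level was 19.3, 28.0, 19.3 and 26.9 CPM in Control, 53.2, 70.3, 51.3 and 44.7 CPM in MTP and 27.8, 32.7, 32.6 and 33.3 CPM in MTP + CR livers. The MTP livers were above all others and the MTP + CR livers overlapped with Control. For Hadhb the log2 fold change was 1.23 ± 0.21 (SE, adjusted p = 0.00784) in MTP against Control and −0.80 ± 0.21 (SE, adjusted p = 0.0320) in MTP + CR against MTP. Counts given to Hadhb were fewer than those given to Hadhb-ps, a processed pseudogene that is 99.8% identical over 1428 bases and collected 54801 counts against 7861 over the 12 libraries. A further pseudogene, Gm9108, is 97.6% identical and had 4897. Hadhb held 10.3% to 18.1% of the counts of the 3 genes in Control livers, 10.7% to 14.6% in MTP livers and 10.0% to 11.5% in MTP + CR livers. For the sum of the 3, a fit added after the values were seen, the log2 fold change was 1.30 ± 0.22 (SE, adjusted p = 0.00789) in MTP against Control. For MTP + CR against MTP the sum gave −0.63 ± 0.21 (SE, adjusted p = 0.0675), which did not pass, although the MTP + CR livers stayed below all MTP livers. Against Control the sum gave 0.67 ± 0.22 (SE, adjusted p = 0.112) in MTP + CR, which did not pass, but its groups did not overlap, with 265 to 333 CPM in MTP + CR and 155 to 240.3 CPM in Control livers.

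Hadha and Hadhb are transcribed in opposite directions from start sites with 85 bases between the genes. The promoter window of Hadhb (chr5:30155003-30155302, plus strand, GRCm38.p6, RefSeq) is printed to show this arrangement, with the 228 bases that it shares with the window of Hadha (chr5:30154931-30155230, minus strand) in capitals.

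Hadhb: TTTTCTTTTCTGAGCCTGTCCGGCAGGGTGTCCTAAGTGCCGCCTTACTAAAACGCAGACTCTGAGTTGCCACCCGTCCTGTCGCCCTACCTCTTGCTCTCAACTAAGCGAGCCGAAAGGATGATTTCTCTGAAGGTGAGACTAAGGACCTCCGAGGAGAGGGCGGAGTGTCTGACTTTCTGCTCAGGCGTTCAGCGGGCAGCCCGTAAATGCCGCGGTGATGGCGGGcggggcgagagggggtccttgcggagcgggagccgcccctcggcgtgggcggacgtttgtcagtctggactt

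Neither window held a match to the PPARα repeat with at most 2 mismatches. Between MTP + CR and MTP the log2 fold change was −0.12 for Hadha and −0.80 for Hadhb, and the difference between the genes was not tested.

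The remaining enzymes of the later steps were not called in any comparison. Acaa2, the mitochondrial 3-ketoacyl-CoA thiolase for shorter chains, measured 348, 644, 378 and 823 CPM in MTP livers and 1088, 855, 950.4 and 1446 CPM in MTP + CR livers, against 611 to 858 CPM in Control. All MTP + CR livers lay above all MTP livers, with a log2 fold change of 0.98 ± 0.31 (SE, adjusted p = 0.0550) that did not pass. Hadh, the 3-hydroxyacyl-CoA dehydrogenase for shorter chains, measured 151, 324, 178 and 419 CPM in MTP livers, where 232 to 396 CPM were found in Control and 333 to 552 CPM in MTP + CR livers. For both genes MTP 1 and MTP 3 were below all Control livers and MTP 4 was within or above the Control range.

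Of the auxiliary enzymes for unsaturated fatty acids, both isomerases rose in MTP and Eci1 also in MTP + CR, each against Control. Eci1 (chr17:24426641-24439348, plus strand), which shifts double bonds in mitochondria, measured 65.1, 57.3, 68.6 and 90.9 CPM in Control, 153, 163, 151 and 226 CPM in MTP and 236, 112, 112 and 268 CPM in MTP + CR livers. All treated livers were above Control, and the MTP + CR livers fell into 2 low and 2 high values. Eci1 had a log2 fold change of 1.30 ± 0.31 (SE, adjusted p = 0.0316) in MTP and of 1.37 ± 0.31 (SE, adjusted p = 0.0498) in MTP + CR.

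Eci2 (chr13:34977748-35027096, minus strand), an isomerase of both organelles, measured 87.9, 119, 117 and 244 CPM in Control, 293, 365, 414 and 367 CPM in MTP and 352, 241, 303 and 556 CPM in MTP + CR livers. Control 4 was slightly above MTP + CR 2, so of the treated groups only MTP was fully above Control. Eci2 had a log2 fold change of 1.34 ± 0.34 (SE, adjusted p = 0.0392) in MTP and 1.36 ± 0.34 (SE, adjusted p = 0.0690) in MTP + CR, which did not pass. Decr1, the mitochondrial 2,4-dienoyl-CoA reductase, went from 140.2 ± 42.1 CPM in Control to 234 ± 77.2 CPM in MTP and 281 ± 105 CPM in MTP + CR livers without a call, and all MTP + CR livers were above Control.

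The electron transfer flavoprotein and its dehydrogenase, which pass electrons from the acyl-CoA dehydrogenases to the respiratory chain, were not called in MTP against Control, and only Etfb was called in MTP + CR, against MTP. Etfb (chr7:43444083-43457800, plus strand), the β subunit, measured 130.2, 116, 129 and 113 CPM in Control, 102, 117, 119.9 and 235 CPM in MTP and 394, 178, 249 and 514 CPM in MTP + CR livers. MTP 4 stood above the other MTP livers and above MTP + CR 2, and all MTP + CR livers were above Control. For Etfb the log2 fold change was 1.22 ± 0.34 (SE, adjusted p = 0.0387) in MTP + CR against MTP and 1.45 ± 0.35 (SE, adjusted p = 0.0587) in MTP + CR against Control, which did not pass.

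Etfa, the α subunit, measured 237, 249, 262 and 262 CPM in Control, 189, 254, 189.9 and 347 CPM in MTP and 385, 327, 324 and 426 CPM in MTP + CR livers. Etfdh, the dehydrogenase that hands the electrons to ubiquinone, had means of 279 ± 33.9, 295 ± 124 and 384 ± 25.1 CPM. For both genes all MTP + CR livers were above Control and neither was called. The promoter window of Etfa (chr9:55512194-55512493, minus strand, GRCm38.p6, RefSeq) is the other one with a near match to the repeat, on its opposite strand and again in capitals.

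Etfa: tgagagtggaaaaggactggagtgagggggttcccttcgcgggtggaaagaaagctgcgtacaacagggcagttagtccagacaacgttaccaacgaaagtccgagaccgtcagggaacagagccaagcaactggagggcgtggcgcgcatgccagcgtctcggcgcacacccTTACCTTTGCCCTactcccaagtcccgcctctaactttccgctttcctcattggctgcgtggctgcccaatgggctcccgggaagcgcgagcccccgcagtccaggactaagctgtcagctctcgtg

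Neither Slc25a20 nor Etfa was called in MTP against Control, and none of the 9 genes called there with a promoter window had a match in it.

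The ketone body genes differed more among the MTP livers than between groups. Bdh1, the 3-hydroxybutyrate dehydrogenase, measured 319, 275, 355 and 322 CPM in Control, 73.6, 229, 136 and 609 CPM in MTP and 571, 605, 497 and 582 CPM in MTP + CR livers. Acat1, the mitochondrial acetoacetyl-CoA thiolase, measured 437, 363, 531 and 573 CPM in Control, 218, 669, 187 and 861 CPM in MTP and 793, 979, 652 and 1052 CPM in MTP + CR livers. All MTP + CR livers lay above all Control livers for both genes, while the MTP livers ran from below to above the Control range. Neither gene was called in any comparison, with log2 fold changes in MTP + CR against Control of 0.83 and 0.87 (adjusted p = 0.320 and 0.259).

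In peroxisomes the largest rise was that of Ehhadh (chr16:21761287-21787807, minus strand), the bifunctional enzyme that carries out the middle steps of the classical peroxisomal spiral. Its level was 199, 71.0, 235 and 291 CPM in Control, 1654, 1131, 1735 and 1111 CPM in MTP and 1108, 514, 501 and 527 CPM in MTP + CR livers. All MTP livers were above all MTP + CR livers, by a small margin over MTP + CR 1, and these were above all Control livers. The fitted difference on the log2 scale was 2.82 ± 0.43 (SE, adjusted p = 0.00636) in MTP against Control. It was −1.09 ± 0.41 (SE, adjusted p = 0.0864) in MTP + CR against MTP and 1.73 ± 0.42 (SE, adjusted p = 0.0598) in MTP + CR against Control, and neither passed.

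Decr2 (chr17:26081208-26090337, minus strand), the peroxisomal 2,4-dienoyl-CoA reductase, measured 95.4, 89.3, 69.6 and 125 CPM in Control, 43.0, 133, 109 and 202 CPM in MTP and 362, 282, 298 and 454 CPM in MTP + CR livers. The MTP livers spread around the Control range and the MTP + CR livers were above all others. Its log2 fold change was 1.52 ± 0.38 (SE, adjusted p = 0.0292) in MTP + CR against MTP and 1.88 ± 0.38 (SE, adjusted p = 0.0341) in MTP + CR against Control.

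Pex11a (chr7:79735957-79743131, minus strand), a membrane protein that promotes the division of peroxisomes, measured 39.5, 45.5, 35.5 and 56.3 CPM in Control, 133, 108, 194 and 79.8 CPM in MTP and 160.3, 56.0, 113 and 57.7 CPM in MTP + CR livers. All MTP livers were above Control, and MTP + CR 2 was within the Control range. Its log2 fold change was 1.54 ± 0.36 (SE, adjusted p = 0.0300) in MTP against Control and 1.13 ± 0.36 (SE, adjusted p = 0.112) in MTP + CR against Control, which did not pass.

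**Figure D4:**
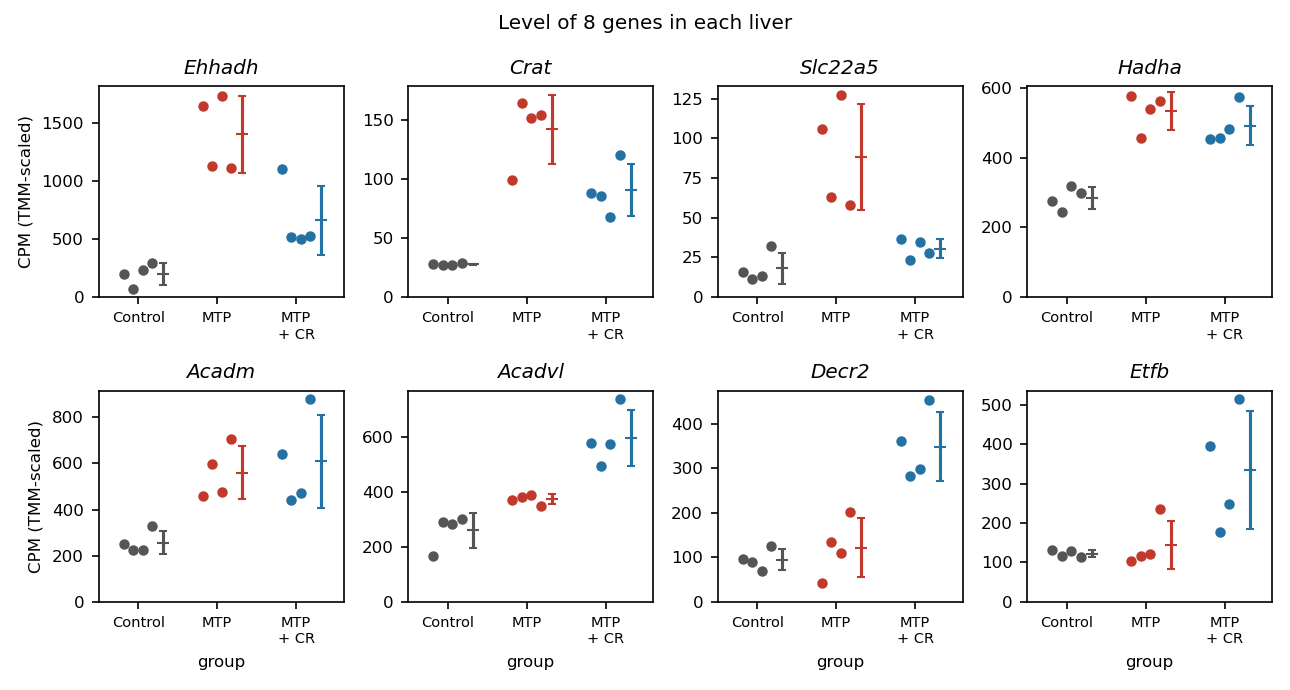
Level in CPM (y axis, from 0) of 8 genes in each liver by group (x axis), as points, with the mean and SD of 4 livers beside them. Ehhadh, Crat and Slc22a5 are highest in the MTP group, Hadha and Acadm overlap between the treated groups, and Acadvl, Decr2 and Etfb have their highest means in the MTP + CR group.

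Acaa1a and Acaa1b encode the 3-ketoacyl-CoA thiolases of peroxisomes, and their transcripts are 96.6% identical over 1428 bases, so their reads may be exchanged. Acaa1a measured 170.0, 136, 176 and 240.0 CPM in Control, 111, 231, 165 and 459.9 CPM in MTP and 499, 234, 310.0 and 894 CPM in MTP + CR livers. Acaa1b measured 366, 73.4, 379 and 408 CPM in Control, 142, 208, 172 and 653 CPM in MTP and 1602, 318, 597 and 1323 CPM in MTP + CR livers. The groups overlapped for both, with MTP 4 above the other MTP livers and MTP + CR 2 below the other MTP + CR livers. Neither was called, and for their sum the log2 fold change in MTP + CR against MTP was 1.43 ± 0.55 (SE, adjusted p = 0.0896).

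The other peroxisomal genes were not called in any comparison. Crot, the carnitine octanoyltransferase that exports shortened chains, had means of 1441 ± 866, 1542 ± 881 and 1502 ± 493 CPM in Control, MTP and MTP + CR livers. Hsd17b4, the D-bifunctional protein for branched chains, had means of 369.5 ± 56.4, 413 ± 190.1 and 639.6 ± 148 CPM, with all MTP + CR livers above Control. Among the ABC transporters that carry acyl-CoA into peroxisomes, Abcd3 had means of 357 ± 128, 440.4 ± 129.9 and 435 ± 53.7 CPM and Abcd2 of 24.5 ± 17.8, 15.6 ± 9.25 and 35.8 ± 30.8 CPM.

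The mitochondrial and the peroxisomal genes had different medians in MTP livers. For the 19 mitochondrial genes the median log2 fold change was 0.74 in MTP against Control, 0.26 in MTP + CR against MTP and 0.87 in MTP + CR against Control. For the 9 peroxisomal genes it was 0.30, 0.63 and 1.13. The peroxisomal median in MTP against Control was −0.12 without MTP 4 and 0.52 without Control 4. In MTP + CR against MTP the mitochondrial median was 0.05 without MTP + CR 4 and 0.45 without MTP 4, and the peroxisomal median was 0.40 without MTP + CR 2 and 0.96 without MTP 4. The mitochondrial less the peroxisomal median was −0.37 in MTP + CR against MTP, and −0.03 without MTP + CR 2. Against Control it was −0.26 in MTP + CR livers, and leaving out MTP + CR 1 or MTP + CR 2 gave 0.09 or −0.49. Of the mitochondrial genes 6 of 19 were called higher in MTP against Control, and of the peroxisomal genes 2 of 9 (Ehhadh and Pex11a), where 2.61% of all tested genes were. The 6 include Cpt1b, whose call was lost with the counts of Gm44502 added. For MTP + CR against Control the counts were 4 of 19 and 1 of 9, where 0.329% of all tested genes were called higher, and every one of the 28 genes had a log2 fold change above 0. The difference between the compartments is a description and was not tested, since genes of a pathway are not independent replicates.

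Liver by liver, the median log2 difference of the mitochondrial genes from the Control mean was −0.09, −0.21, 0.09 and 0.24 in Control, 0.39, 0.69, 0.56 and 0.94 in MTP, and 0.85, 0.69, 0.66 and 1.08 in MTP + CR livers. All 8 treated livers were above all Control livers. For the peroxisomal genes it was 0.04, −0.63, 0.16 and 0.44 in Control, −0.63, 0.52, −0.10 and 0.92 in MTP, and 1.5, 0.60, 0.81 and 1.22 in MTP + CR livers. Here MTP 1 and MTP 3 were within the Control range, MTP 2 and MTP 4 were above it, and all MTP + CR livers were above it. The same median over all tested genes stayed between −0.05 and 0.02 in every liver.

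**Figure D5:**
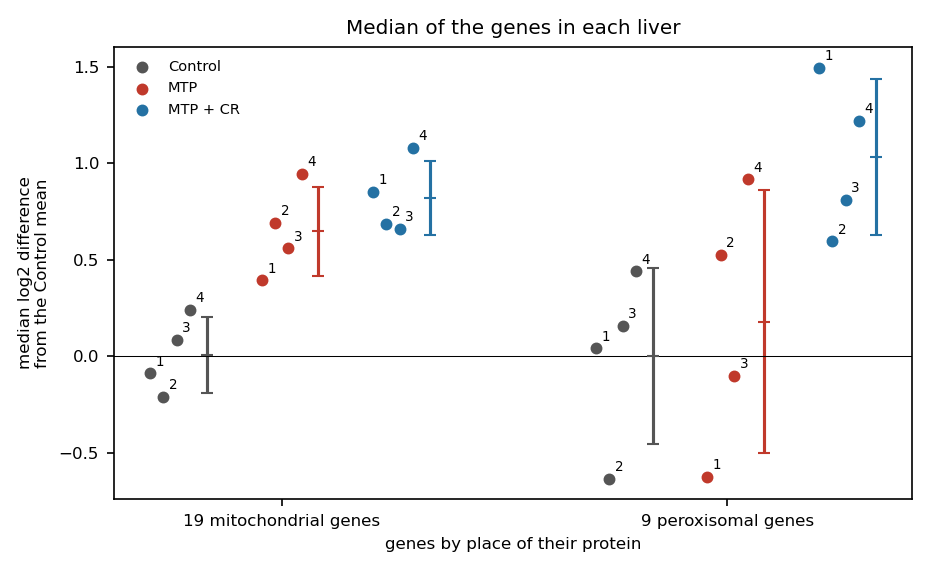
Median log2 difference from the Control mean (y axis) of the 19 mitochondrial and the 9 peroxisomal genes in each liver, numbered by replicate, with the mean and SD of 4 livers beside the points. For mitochondrial genes all treated livers lie above Control, and for peroxisomal genes MTP livers spread from −0.63 to 0.92.

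MTP 1 and MTP 3, the libraries with the largest TMM factors, were the lowest MTP livers for Bdh1, Acat1, Hadh, Acaa2, Hsd17b4, Etfa, Etfdh and Acaa1b, and the highest for Slc22a5, Cpt1b, Ehhadh and Pex11a. They also had the lowest hepatocyte marker sums, at 39501 and 53041 CPM, against 67969 CPM in MTP 2 and 71149 CPM in MTP 4, and the part of these markers in the values of the 2 livers was not tested. In a fit without both, chosen after the values were seen, only Crat of the 11 genes stayed called in MTP against Control (log2 fold change 2.54, adjusted p = 0.00420), and 25 of all tested genes were called. The median of the 35 genes in that comparison was then 0.70. With both left out, 0 of the 35 were called in MTP + CR against MTP by edgeR's quasi-likelihood test, and in MTP + CR against Control 4 were (Slc25a20, Crat, Acadvl and Decr2). Of all genes tested in that fit, 0.0765% were higher and 0.0829% lower in MTP against Control, 0.0319% and 0.179% in MTP + CR against MTP, and 0.261% and 0.759% in MTP + CR against Control. The numbers with an unadjusted p under 0.05 in that fit were 18 higher and 0 lower in MTP against Control, 3 and 3 in MTP + CR against MTP, and 26 and 0 in MTP + CR against Control. Of all genes tested in that fit, 10.9%, 14.2% and 23% reached this p in either direction.

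Leaving out 1 library at a time, including those of the group not compared, showed which calls stayed within the threshold. A lost call does not show that a gene rested on few livers, since every such fit also had fewer livers. Over all tested genes, 244 to 2009 were called in these fits in MTP against Control, where 820 were called with every library. In MTP against Control, Slc22a5, Crat, Hadhb and Ehhadh were called in all 12 such fits, with adjusted p of at most 0.0349. Cpt1b lost its call without Control 3 (adjusted p = 0.0502). Acadl kept its call only without Control 4 or MTP + CR 4 (adjusted p = 0.0506 to 0.144 in the others). Acadm lost it without any of Control 1 to 3, MTP 1 to 3 or MTP + CR 1 (adjusted p = 0.0501 to 0.112), and Eci1 without any of Control 1 to 3 or MTP 1 to 3 (0.0501 to 0.0928). Hadha lost it without any Control library, MTP 1 or MTP 3 (0.0604 to 0.0884), Pex11a without Control 1 to 3, MTP 1 or MTP 3 (0.0621 to 0.102), and Eci2 without Control 1 to 3, MTP 1 to 3, MTP + CR 1 or MTP + CR 3 (0.0531 to 0.118). In each of these fits the log2 fold change stayed above 0.

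Between MTP + CR and MTP no call held in all 12 fits. Slc22a5 lost its call without MTP 1, MTP 3, MTP + CR 1 or MTP + CR 4 (adjusted p = 0.0516 to 0.0757), and Decr2 without MTP 1 to 3, MTP + CR 1 or MTP + CR 4 (0.0549 to 0.0894). Hadhb lost it without MTP 1 to 3, MTP + CR 1, MTP + CR 3 or MTP + CR 4 (0.0578 to 0.0815), and Etfb without any library but MTP 4 and MTP + CR 2 (0.0505 to 0.116). Without MTP 4, 10 of the 35 genes were higher in MTP + CR and 3 were lower, and of all genes tested in that fit 14.1% were higher and 11.7% lower, 4009 in all against 1892 with every library. The genes gained were Hadh, Acaa2, Etfa, Acat1, Bdh1, Hsd17b4, Acaa1a and Acaa1b, at adjusted p from 0.00308 to 0.0419, and Acsl4, which was lower (adjusted p = 0.0488). Bdh1, for which MTP 4 had 609 CPM and the other MTP livers at most 229 CPM, was then also called lower in MTP than in Control (log2 fold change −1.14, adjusted p = 0.0406). In that comparison and fit 7.01% of all tested genes were called lower. Without MTP + CR 1, the MTP + CR liver with 82 counts of Cpt1b, Cpt1b was called lower than in MTP (log2 fold change −4.98, adjusted p = 0.00138), a value for Cpt1b without the counts of Gm44502.

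Between MTP + CR and Control, Crat was called in all 12 fits (adjusted p of at most 0.0225). Slc25a20 and Decr2 lost their calls without any Control library, MTP 2, MTP + CR 1, MTP + CR 3 or MTP + CR 4 (adjusted p = 0.0519 to 0.106 and 0.0520 to 0.107). Acadvl lost its call without any of the same libraries or MTP 3 (0.0506 to 0.10), and Acadm and Eci1 kept theirs only without MTP 4 or MTP + CR 2 (0.0544 to 0.142 and 0.0504 to 0.135 in the other fits). Etfb was gained without MTP 4 or MTP + CR 2, and Eci2 without Control 4 or MTP + CR 2. Under total-count scaling 17 of the 35 genes were higher in MTP than in Control and 7 were lower in MTP + CR than in MTP, where 17.2% and 27.2% of all tested genes were. Relative to the shift of all genes by that scaling, the median of the 35 genes was 0.80 against 0.50 in MTP against Control and −0.34 against −0.54 in MTP + CR against MTP.

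Of 32 tested genes in a list of other enzymes of fatty acid oxidation and ketogenesis, 1 was higher and 1 lower in MTP than in Control, with a median log2 fold change of −0.10. Of all tested genes 2.61% were higher and 2.78% lower. Acad11, a peroxisomal and mitochondrial acyl-CoA dehydrogenase for very long chains, had 337 ± 61.6 to 665 ± 127 CPM (mean ± SD, n = 4, Control to MTP), and rose by 0.98 (adjusted p = 0.0323) on the log2 scale. Nudt7, a peroxisomal hydrolase of coenzyme A, had 573 ± 273 to 76.6 ± 41.3 CPM and was lower in MTP, at −2.90 (adjusted p = 0.0104) on the log2 scale.

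Against MTP, 4 of the 32 were higher in MTP + CR and 0 lower, where 5.94% of all tested genes were higher and 6.51% lower, and the median was 0.59. Phyh, which starts the oxidation of branched phytanic acid, had 674 ± 217 to 1876 ± 544 CPM (MTP to MTP + CR), at 1.48 (adjusted p = 0.0206) on the log2 scale. Nudt7 and Hsd17b10, a mitochondrial hydroxyacyl-CoA dehydrogenase, were also higher, at 2.09 (adjusted p = 0.0281) and 1.57 (adjusted p = 0.0429). Against Control 0 of the 32 were called in MTP + CR by edgeR's quasi-likelihood test, where 0.329% of all tested genes were higher and 1% lower. An unadjusted p under 0.05 was reached by 8 of the 32 (22% of all tested genes), and DESeq2 called 5 higher and 0 lower, against 3.7% and 3.92% of all tested genes.

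Of 32 tested genes in a list of PPARα, its partners and its targets outside the 35, 8 were higher and 0 lower in MTP than in Control, where 2.61% and 2.78% of all tested genes were, with a median log2 fold change of 0.86. Those with the smallest adjusted p were Cidec at 7.83 (adjusted p = 0.00214), Acot2 at 4.34 (adjusted p = 0.00282), Lpin2 at 1.61 (adjusted p = 0.00999) and Mgll at 1.39 (adjusted p = 0.0104) on the log2 scale. They encode a lipid droplet protein, a mitochondrial acyl-CoA thioesterase, a phosphatidate phosphatase and a monoacylglycerol lipase. With crocin added, 6 of the 32 were lower than in MTP and 1 higher, where 6.51% and 5.94% of all tested genes were, with a median of −0.34. Cidec, Acot2, Lpin2 and Pdk4, a kinase that turns off pyruvate dehydrogenase, were the lower ones with the smallest adjusted p, at −4.78 (adjusted p = 0.00714), −2.62 (adjusted p = 0.0131), −1.25 (adjusted p = 0.0230) and −3.36 (adjusted p = 0.0286). Against Control 1 was higher in MTP + CR, Fgf21, a hormone of the fasting liver, at 3.01 (adjusted p = 0.0468), where 0.329% of all tested genes were higher and 1% lower. DESeq2 called 14 of these 32 higher and 0 lower in MTP against Control, and 13 higher and 1 lower in MTP + CR against Control, where it called 5.59% and 6.01%, and 3.7% and 3.92%, of all tested genes. The transcript of the receptor itself, Ppara, had log2 fold changes of 0.13 (adjusted p = 0.910) in MTP against Control and −0.71 (adjusted p = 0.304) in MTP + CR against MTP and was not called.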

How the data were processed

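RNA of 12 livers was analysed, 4 per group, in 3 comparisons. The counts as deposited are whole numbers of fragments per gene, made by the authors from trimmed reads with Hisat2 for mapping and Stringtie for counting, whereas the submitters' processing notes name Bowtie 0.12.2 and mm10. The annotation release and the strandedness of counting are not given in the sources used here. The FPKM values were deposited by the authors beside the counts and equal count over length and over total count, without a TMM factor.

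The fits used edgeR 4.0.16 under R 4.3.3. The filter on low values was filterByExpr with a count minimum of 10 and a total minimum of 15, libraries were scaled with TMM, and a quasi-likelihood fit over the 3 groups gave each comparison, with Benjamini-Hochberg adjustment over all 15197 genes. Calls needed a fold change over 1.5 at an adjusted p below 0.05. CPM carries the TMM factor, and log2 CPM of single livers used a prior count of 2. The procedure was tested on simulated data. Replicates are separate mice, so p-values set the difference between groups against the spread between livers within groups. That spread was estimated from all 12 libraries and moderated over genes. The numbers 1 to 4 did not pair the livers (correlation of same-number livers −0.19 to 0.20 over 12 pairs).

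The 35 genes and the lists were chosen with earlier results of these data known. Every one of the 35 is accounted for. Those called in any comparison, and some others such as Acaa1a and Acaa1b, are given per liver. Of each other list, up to 4 called genes with the smallest adjusted p are named per comparison, except that some results are not reported here. Ppara was named for its role, and the genes named for their values in MTP 1, MTP 3 or MTP 4 were chosen after their values were seen. Overlapping genes came from GENCODE vM21, and near-identical transcripts from a sequence search. Alternatives were DESeq2 1.42.0, RLE factors, total-count scaling, no filter, 1 CPM in at least 4 libraries as the filter, only the 2 compared groups, the replicate block, no fold threshold, limma 3.58.1 on log2(FPKM + 1) and log2(FPKM + 0.1), removal of the gene length trend (lowess span 0.3), and the omission of each library singly. Added after the values were seen were fits without MTP 1 and MTP 3 and with the counts of near-identical or overlapping partners added. Whether the saline of the Control group held the solvent of triptolide was not stated. Protein sequences were not analysed here.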

Additional observations from a re-analysis of the deposited data

Results flagged for a closer look

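In 12 of 105 sets of 4 livers (35 genes in 3 groups), the highest or lowest liver was farther from the others than Dixon's 95% limit for 4 values allows. About 1 in 20 sets would be flagged by chance if the values were normally distributed and the sets independent. The CPM were not log-transformed and all sets come from the same 12 livers, so the number flagged cannot be set against that rate.

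MTP + CR 1 was the highest of its group for Ehhadh, at 1108 CPM where the other 3 had 501 to 527 CPM, and for Cpt1b, at 5.83 CPM where the others had 0.130 to 0.216 CPM. It was the lowest for Hadhb, at 27.8 CPM against 32.6 to 33.3 CPM. MTP + CR 4 was the highest for Cpt2, at 292 CPM against 151 to 169 CPM, and for Decr1, at 437 CPM against 215 to 249 CPM. MTP + CR 2 was the highest for Abcd2, at 82.0 CPM against 17.3 to 23.1 CPM.

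MTP 4 was the highest MTP liver for Acaa1b, at 653 CPM against 142 to 208 CPM, for Etfb, at 235 CPM against 102 to 119.9 CPM, and for Eci1, at 226 CPM against 151 to 163 CPM. Among Control livers, Control 1 was the lowest for Acadvl, at 165 CPM against 282 to 302 CPM, and the highest for Cpt1b, at 0.114 CPM from 2 counts against 0.0668 to 0.0710 CPM from 1 count each. Control 2 was the lowest for Acaa1b, at 73.4 CPM against 366 to 408 CPM.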

How the results depend on the processing

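None of the 35 genes changed direction with a call under any of 25 alternatives, of which 2 were chosen after the values were seen. Cpt1b, not called in MTP + CR against MTP, changed sign there from −1.90 to 0.29 with the counts of Gm44502 added. The number called in MTP against Control (11 higher) was 17 with total-count scaling, 17 with log2(FPKM + 1), 17 with log2(FPKM + 0.1), 7 without a filter on low counts and 1 without MTP 1 and MTP 3. Over all tested genes, 820 were called there in either direction, and 2931, 2103, 2417, 674 and 25 in these settings in the same order. In MTP + CR against MTP (2 higher, 2 lower) it was 6 higher and 4 lower with DESeq2, 1 and 7 with total-count scaling, 1 and 6 with either FPKM scale, 1 and 1 without a filter, 0 and 1 with only the compared groups, and 0 and 0 without MTP 1 and MTP 3. Of the genes called lower there, 1 remained with the gene length trend removed and 1 with partner counts added. Over all tested genes, 1892 were called in that comparison in either direction. The number was 3318 with DESeq2, 4546 with total-count scaling, 3376 and 4491 on the FPKM scales and 1143 without a filter. It was 320 with only the compared groups, 33 without MTP 1 and MTP 3, 1556 with the length trend removed and 1884 with partner counts added. For MTP + CR against Control (6 higher) the number of the 35 called was 16 with DESeq2, 2 without a filter and 3 with only the compared groups. Over all tested genes, 202 were called there, and 1158, 116 and 105 in these settings in the same order. The replicate number as a block gave 8 higher in MTP against Control, 2 higher and 3 lower in MTP + CR against MTP (Slc22a5, Hadhb and, newly, Cpt1b) and 2 higher in MTP + CR against Control. Over all tested genes, 539, 1428 and 66 were called with the block in these comparisons.

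The median of the 35 genes in MTP against Control (0.42) was 0.80 with total-count scaling and 0.80 with log2(FPKM + 0.1), and that of the mitochondrial genes (0.74) was 1.18, 1.19 and, with log2(FPKM + 1), 1.17. Between MTP + CR and MTP the median of the 35 (0.15) was −0.34 with total-count scaling, −0.36 with log2(FPKM + 1) and −0.36 with log2(FPKM + 0.1). That of the mitochondrial genes (0.26) was −0.22, −0.24 and −0.24, and −0.042 without MTP 1 and MTP 3. The shift of all genes given above was for total-count scaling, and the FPKM values also carry no TMM factor. The cause was not tested for any of these settings.

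With each library left out in turn, the number called higher ran from 4 to 12 in MTP against Control, from 0 to 10 in MTP + CR against MTP and from 1 to 8 in MTP + CR against Control, and the number called lower from 0 to 1, from 0 to 3 and at 0. The median of the 35 genes ran from 0.33 to 0.59, from 0.03 to 0.29 and from 0.76 to 1.11. The median of the peroxisomal genes in MTP against Control fell to −0.12 without MTP 4, and that of mitochondrial less peroxisomal genes in MTP + CR against Control rose to 0.09 without MTP + CR 1. Over all tested genes, 820 were called in MTP against Control (1764 with DESeq2, 2931 with total-count scaling, 539 with the block, 2103 and 2417 on the FPKM scales, 25 without MTP 1 and MTP 3). For MTP + CR against MTP 1892 were called (3318 with DESeq2, 4546 with total-count scaling, 1143 without a filter, 320 with only the compared groups, 3376 and 4491 on the FPKM scales, 33 without MTP 1 and MTP 3). For MTP + CR against Control 202 were called (1158 with DESeq2, 116 without a filter, 105 with only the compared groups, 66 with the block, 79 with log2(FPKM + 1)). With each library left out these ran from 244 to 2009, 261 to 4009 and 63 to 370. Cpt1b had at most 2 counts in a Control library, where Gm44502 had 19 to 61.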
